A study of Mus musculus with 2 samples.

Results

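Translation initiation factors (Eif) and elongation factors (Eef) were followed across the cell classes of mouse bone marrow in a control library and in a library with a MYC transgene. The members were all features whose symbol begins with Eif or Eef and a digit, without the eIF2 kinases (Eif2ak), the sex-linked genes Eif2s3x and Eif2s3y, and pseudogenes. This gave 64 of 32286 features, and the rule uses symbols alone. The matching symbols hold 63 protein-coding genes and Eif2c5, a long non-coding RNA with 0 unique molecular identifiers (UMIs), so Eif2c5 carries no translation role here. Eif4e1b also had 0 UMIs, Eef1a2 had 3 and Eef1akmt3 had 71 over all kept cells. The other members ranged from 529 UMIs for Eif5a2 to 497189 UMIs for Eef1a1.

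Both libraries were made from bone marrow hematopoietic cells by droplet sequencing of transcript 3′ ends, 1 library per group. The labels also name a kit for RNA isolation, and how it was used is not stated, but the matrices count UMIs by cell barcode. The control genotype was Mx1Cre+/-;Rosa26+/+ and that of the MYC library was Mx1Cre+/-;Rosa26LSL-MYC/LSL-MYC. Both therefore carry Mx1-Cre, a Cre recombinase under an interferon-inducible promoter that is active in blood stem cells and beyond them, and only the second carries MYC, kept silent by a cassette that Cre can excise. The age and number of the mice and any inducing agent are not given in the sources used here. The series asked how overexpressed MYC in hematopoietic stem cells changes expression in the marrow. With 1 library per group, genotype cannot be told apart from animal, preparation or sequencing run, no difference was tested, and the 95% intervals given below reflect counting error alone.

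After filters the control held 14859 cells (121134285 UMIs, median 5333 per cell) and the MYC library 12540 cells (101793556 UMIs, median 6016 per cell). The libraries shared 97 barcodes, 79 of them among kept cells. The feature named MYC, whose sequence is not stated, had 0 control UMIs, which allows up to 0.0248 per 1000000 UMIs (3 counts of the total), against 289 UMIs in the MYC library, or 2.84 per 1000000 (2.52 to 3.19). In that library it was highest in mature neutrophils at 10.1 per 1000000 and lay between 0.678 and 2.41 in the other 5 classes compared here. Cells were grouped without using the members. The 6 classes followed in depth each held at least 180 cells per library: granulocyte progenitors (577 control and 456 MYC cells), immature neutrophils (3239 and 3038), mature neutrophils (3042 and 2400), monocytes (1355 and 1639), erythroid cells (1484 and 589) and stem or multipotent progenitors (180 and 181). Mature neutrophils were unevenly spread, with cluster 0 holding 1572 control and 151 MYC cells, cluster 9 holding 1190 and 169, and cluster 1 holding 135 control and 2027 MYC cells. A small cluster of stromal or endothelial cells (90 and 107 cells) does not go with the label of hematopoietic cells.

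Protein synthesis starts when eIF4E, eIF4G and the helicase eIF4A, which together form eIF4F, engage the cap of an mRNA and recruit a small ribosomal subunit that carries eIF1, eIF1A, eIF3, eIF5 and eIF2 with the initiator tRNA. Proteins of the 4E-BP family bind eIF4E and block its contact with eIF4G until the kinase mTORC1 phosphorylates them. In elongation, eEF1A delivers aminoacyl-tRNA, the eEF1B subunits recharge eEF1A with GTP, and eEF2 moves the ribosome along the mRNA unless eEF2 kinase inactivates it. MYC is known to induce ribosome and translation factor genes, and many mRNAs of elongation factors carry a 5′ terminal run of pyrimidines (TOP) through which mTORC1 controls their translation.

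The summed level of the 64 members differed between cell classes by several fold and was higher in the MYC library in each of the 6 classes. Levels are given per 1000000 UMIs of the class and library (CPM), where a UMI stands for 1 captured transcript, so they were not scaled by length. At the top, stem or multipotent progenitors stood at 15849 CPM (control) and 19051 CPM (MYC library). Erythroid cells stood at 13190.5 and 17424 CPM, granulocyte progenitors at 12379 and 15365 CPM, and monocytes at 12173 and 16446 CPM. The neutrophils were far below all of these, at 4772 and 6284 CPM when immature and 3989 and 4922 CPM when mature. Eef1a1, which encodes the main eEF1A and is the most abundant member, made up 10.3% of member UMIs in mature neutrophils of the control and 25.7% in stem or multipotent progenitors. Without it the sum was still higher in the MYC library in all 6 classes, by 0.24 to 0.43 on the log2 scale. The sum was also higher in each of the 15 clusters that make up these classes.

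**Figure D1:**
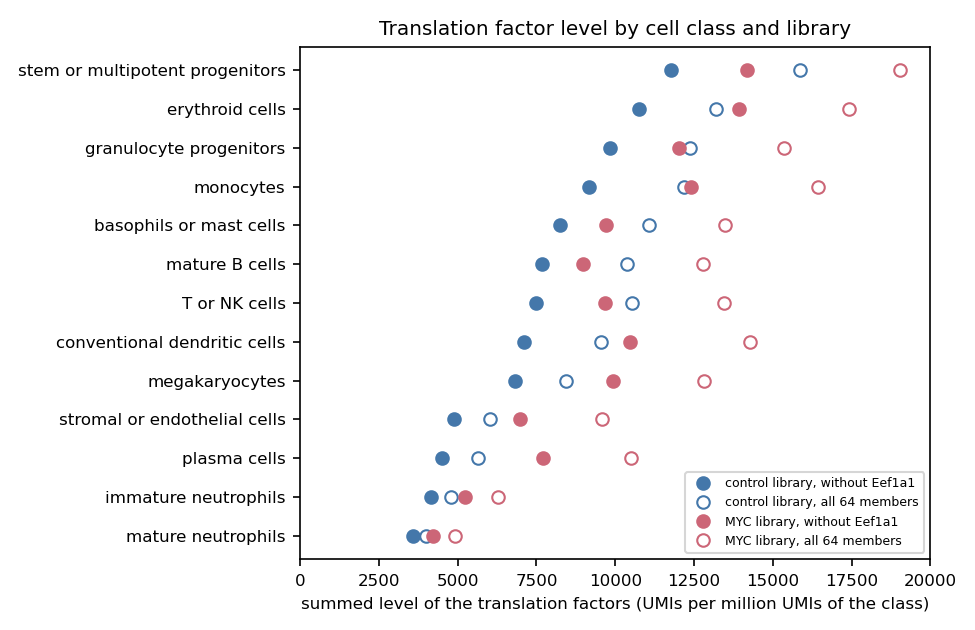
Summed level of the translation factors (x axis, CPM) in the 13 classes with at least 50 cells in each library; filled points leave out Eef1a1, open points include it, blue is the control and red the MYC library. Mature neutrophils are lowest (3989 and 4922 CPM with Eef1a1), stem or multipotent progenitors highest (15849 and 19051 CPM), and each red point lies to the right of the blue point of the same kind.

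Many members followed the same order of classes. In the control 23 members had their highest level in stem or multipotent progenitors and 15 in erythroid cells, and 33 had their lowest in mature neutrophils, among the 13 classes with at least 50 cells in each library. In the MYC library these numbers were 21, 14 and 36. Eef1a1 ran from 4075 CPM in stem or multipotent progenitors to 412 CPM in mature neutrophils of the control, a 9.90-fold range, and Eef1b2, an eEF1B subunit, had a 9.46-fold range. Eif4a1, the main eIF4A helicase, stood at 537 CPM in stem or multipotent progenitors against 61.3 CPM in mature neutrophils. Some members left this order. Eif4ebp1 and Eif4ebp2, which encode 4E-BP inhibitors, were highest in mature neutrophils in both libraries, though Eif4ebp1 in the MYC library had almost the same level in erythroid cells (171 and 170.3 CPM). Eif1, which guards start codon choice, stood at 939 CPM in mature neutrophils of the control, above its 663 CPM in stem or multipotent progenitors. Eif5, the GTPase-activating partner of eIF2, was at 323 and 230.3 CPM in these classes. Eif4e3, a divergent cap-binding relative of eIF4E, stood at 55.4 CPM in monocytes and 3.11 CPM in erythroid cells of the control.

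To compare the libraries, the ratio of CPM was taken for each gene with at least 300 UMIs in the class over both libraries, and a gene was counted as higher or lower past a log2 ratio of 0.32 in either direction (called the fold below). In granulocyte progenitors 18 of the 53 members past that floor were higher in the MYC library and 9 lower, where 15.5% of all genes were higher and 44.3% lower. Immature neutrophils had 23 higher and 7 lower of 54 (all genes: 15.5% and 40.9%), and mature neutrophils 19 and 5 of 41 (15.1% and 44.3%). Monocytes had 34 higher and 6 lower of 58 (19.7% and 33.3%). Erythroid cells had 25 and 6 of 53 (21.7% and 32.4%), and stem or multipotent progenitors 18 and 4 of 44 (20.2% and 23.0%). So in each class a larger share of the members than of all genes was higher and a smaller share lower. The median log2 ratio of the members was 0.23, 0.27, 0.29, 0.40, 0.24 and 0.24 in these classes in the same order, beside medians over all genes of -0.25, -0.23, -0.25, -0.13, -0.10 and -0.04. Ribosomal protein genes, in contrast, had medians of 0.44 to 0.94, above the members in all 6 classes. In immature neutrophils the median fell with a stricter cell filter: cells with at least 1000 UMIs and 500 genes had 18 higher and 11 lower members (13% and 42.5% of all genes) and a member median of 0.060, beside -0.24 for all genes.

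Past 1.5-fold, 9 members were higher and 5 lower in granulocyte progenitors (4.82% and 22.1% of all genes), and 17 and 0 in immature neutrophils (7.17% and 15.6%). Mature neutrophils had 12 and 3 (8.1% and 22.7%), monocytes 18 and 1 (8.12% and 13.9%), erythroid cells 13 and 1 (10.8% and 14.9%), and stem or multipotent progenitors 5 and 1 (6.66% and 7.06%). The higher members were thus a larger share than among all genes at this limit too, by least among the stem or multipotent progenitors, and the lower members a smaller share.

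The split into higher and lower members moved with the scaling. Median-of-ratios scaling, which shifted the ratios by 0.26, 0.16, 0.22, 0.19, -0.05 and 0.11 in the same order of classes, gave 32 higher and 5 lower in granulocyte progenitors (29.7% and 22% of all genes under that scaling), 30 and 4 in immature neutrophils (23.1% and 24.2%) and 42 and 1 in monocytes (30.1% and 18.9%). It gave 21 and 9 in erythroid cells (18.8% and 36.2%), and stem or multipotent progenitors had 23 and 2 (28.4% and 15.3%). Leaving ribosomal protein, mitochondrial and Gm42418 UMIs out of the totals gave 27 and 6 in granulocyte progenitors (20.1% and 36.8% of all genes). Leaving out the 20 most abundant genes of the class gave 17 and 14 in erythroid cells (14.4% and 44.5%), and stem or multipotent progenitors had 12 and 9 (13% and 33.7%). In each of these the members held a larger share of higher and a smaller share of lower genes than all genes did under the same scaling, and the member median stayed above 0.

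Transcript length moved with the ratios of all genes, and so with those of the members. Across all genes past the floor with an annotated coding transcript, Spearman's correlation of the longest coding transcript with the log2 ratio was -0.63 in granulocyte progenitors, -0.57 in immature neutrophils, -0.48 in mature neutrophils, -0.55 in monocytes, -0.46 in erythroid cells as well as -0.58 in stem or multipotent progenitors. It was taken over 3479 to 8366 genes in a class. Among the 41 to 58 members of a class it was -0.62, -0.51, -0.66, -0.48, -0.51 and -0.66. These are descriptions across genes of the same 2 libraries, and the part of length in the differences was not tested. In granulocyte progenitors, members under 2000 bases had a median log2 ratio of 0.46 against 0.22 for other genes of that length, those of 2000 to 4000 bases 0.12 against -0.27, and those over 4000 bases -0.40 against -0.53. The member median was above that of other genes in all 3 length ranges of the other 5 classes too. In monocytes, for example, the medians were 0.51 against 0.29, 0.38 against -0.13 and -0.05 against -0.38.

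The comparison was therefore repeated, as an alternative added after the data were seen, with each ratio taken relative to the median of all genes in the same of 10 length classes. Length here and below is that of the longest annotated coding transcript, and which form these cells expressed was not measured. Members higher than their length class then numbered 23 in granulocyte progenitors (17.6% of all genes), 27 in immature neutrophils (17.6%), 23 in mature neutrophils (20.4%), 34 in monocytes (18.1%), 19 in erythroid cells (22.7%), and 15 (15%) among stem or multipotent progenitors. Members lower than their length class numbered 3, 2, 1, 1, 3 and 1, where 15.3%, 14%, 19.7%, 17.2%, 21.8% and 13.7% of all genes were lower. In each class a larger share of the members than of all genes was thus still higher, with fewer members counted as lower than without this step.

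**Figure D2:**
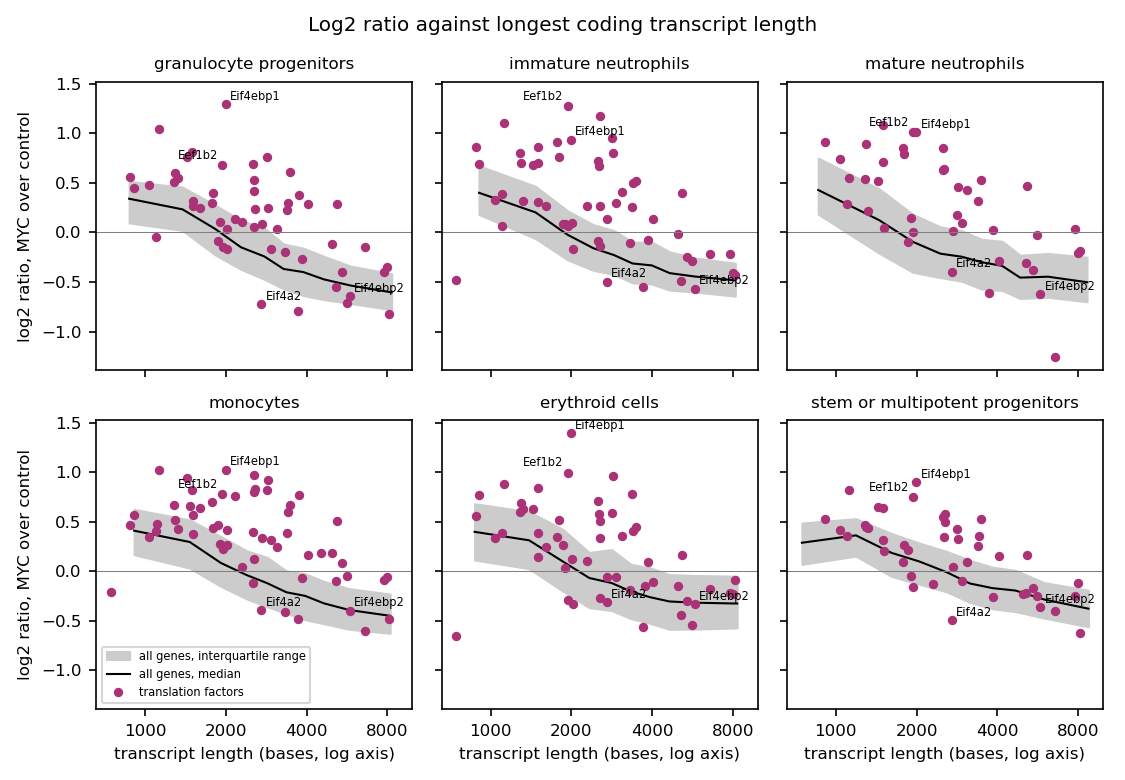
Log2 ratio of level, MYC library over control (y axis), against the longest coding transcript (x axis, bases, log scale) in the 6 classes; purple points are the translation factors past 300 pooled UMIs, the black line the median and the grey band the interquartile range of all genes in 10 length classes. The line lies lower for the longest than for the shortest transcripts in every panel, Eif4ebp1 and Eef1b2 lie above it and Eif4ebp2 lies close to it.

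Among the 39 members past the floor in all 6 classes, 12 were higher in all 6, or 30.8%, where 9.1% of the 2539 genes past the floor in all 6 were. These were Eef1b2, Eif1b, Eif2s2, Eif3f, Eif3h, Eif3i, Eif3k, Eif3m, Eif4e2, Eif4ebp1, Eif5a and Eif6. Eif4ebp2 alone was lower in all 6, where 7.72% of genes were. No member was past the fold in opposite directions in different classes, and 9 members past the floor in at least 1 class were past the fold in none. The classes come from the same 2 libraries and are not independent of each other. Relative to genes of the same length, 10 members were higher in all 6 classes (5.82% of 2510 genes) and none lower (1.55%). The 10 were Eef1b2, Eef1d, Eif1a, Eif1ax, Eif2s2, Eif3c, Eif3f, Eif4e2, Eif4ebp1 and Eif6, so 6 of the 12 were kept.

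**Figure D3:**
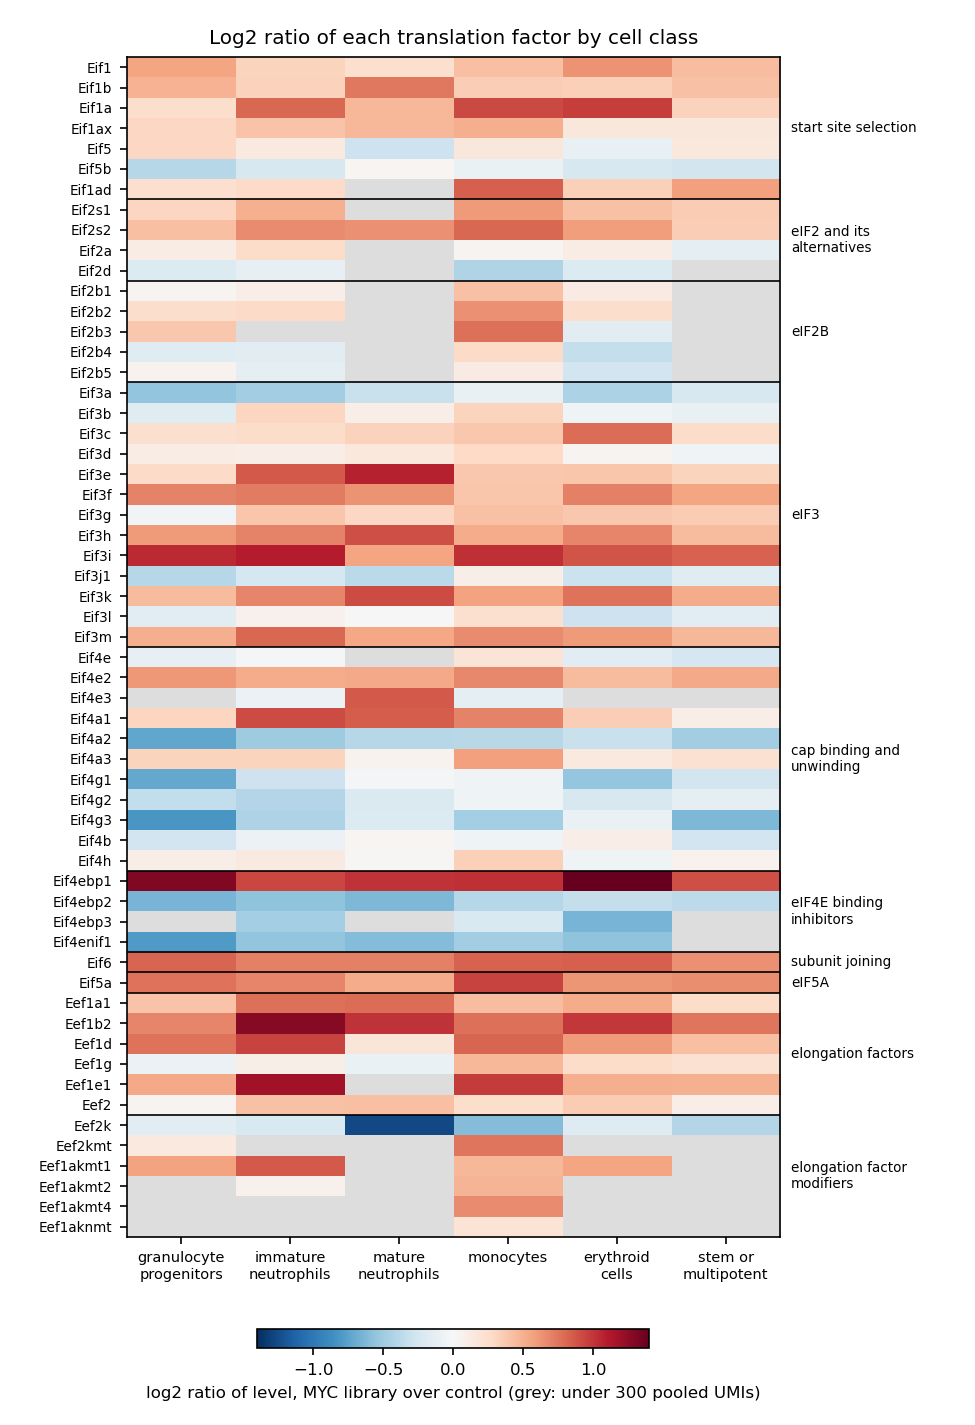
Log2 ratio of level, MYC library over control, for each translation factor (rows, grouped by role) in the 6 classes (columns); red is higher in the MYC library, blue lower, and grey marks fewer than 300 pooled UMIs. The rows of Eif3i, Eif4ebp1, Eif5a, Eif6 and Eef1b2 are red across all columns, and those of Eif4a2 and Eif4ebp2 blue across all columns.

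Of the start site selection factors, 2 of 7 past the floor were higher in granulocyte progenitors, 3 of 7 in immature neutrophils, 3 of 6 in mature neutrophils, 5 of 7 in monocytes, 4 of 7 in erythroid cells as well as 3 of 7 in stem or multipotent progenitors, and only Eif5b in granulocyte progenitors was lower (-0.40, but 0.20 relative to genes of its length). The shares of all genes given above run from 15.1% to 21.7% higher and from 23.0% to 44.3% lower, and are the background of every count by role below. With ratios taken relative to length, 4, 4, 3, 5, 3 and 3 of these factors were higher in the same order and none lower. Eif1 stood at 1194 CPM (control) and 1842 CPM (MYC library) in erythroid cells, and its log2 ratios ran from 0.22 in mature neutrophils to 0.63 in erythroid cells. It was past the fold in no class relative to genes of its length of 1322 bases (0.07 to 0.32). Eif1a, which works with eIF1 on the scanning ribosome, was among the 3 largest ratios of erythroid cells at 0.96 (26.2 and 51.1 CPM). Its near copy Eif1ax had 0.16 in that class, and reads of such close relatives may be hard to assign. Relative to genes of its length of 5172 bases Eif1ax was past the fold there, at 0.48, beside 1.08 for Eif1a. Of eIF2, which carries the initiator tRNA, the beta subunit Eif2s2 was higher in all 6 classes, from 364 and 462 CPM in stem or multipotent progenitors (log2 ratio 0.34) to 292 and 508 CPM in monocytes (0.80). The alpha subunit Eif2s1, the site at which stress kinases act, had ratios of 0.30 to 0.60 in the 5 classes where it passed the floor. Of the subunits of eIF2B, which recharges eIF2 with GTP, 1 of 5 was higher in granulocyte progenitors, 3 of 5 in monocytes and none in immature neutrophils or erythroid cells, where Eif2b4 was lower. In erythroid cells its ratio of -0.33 turned to 0.04 when each cell was weighted alike.

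The subunits of eIF3, the large scaffold of the initiation complex, did not move alike. Higher members numbered 5 of 13 in granulocyte progenitors, 7 in immature neutrophils, 6 in mature neutrophils, 8 in monocytes, 8 in erythroid cells as well as 6 in stem or multipotent progenitors, against 2, 1, 1, 0, 1 and 0 lower. Taken relative to length, 4, 7, 7, 6, 5 and 3 were higher and 1, 0, 0, 0, 1 and 0 lower, so fewer higher calls were left in 4 of the classes. Eif3i had 133 CPM (control) and 274 CPM (MYC library) in granulocyte progenitors, 129 and 261 CPM in monocytes and 174 and 308 CPM in stem or multipotent progenitors, and its log2 ratios ran from 0.55 to 1.10. Eif3e had its largest ratio in mature neutrophils, where it stood at 22.6 and 47.8 CPM (log2 ratio 1.08, 0.86 to 1.30), and its smallest in granulocyte progenitors at 0.27. Within mature neutrophils its ratio was 0.06 in cluster 0, 1.08 in cluster 1 and 1.58 in cluster 9. Relative to length it was past the fold in immature (0.66) and mature neutrophils (0.96) alone. Eif3f was higher by 0.39 to 0.73 and Eif3h by 0.44 to 0.90 across the 6 classes. The largest subunit gene, Eif3a, went the other way, with 467 and 318 CPM in granulocyte progenitors (-0.55), 189 and 135 CPM in immature neutrophils (-0.49) and 633 and 466 CPM in erythroid cells (-0.44). Its coding transcript of 5125 bases is long, and relative to genes of that length its ratios lay between -0.14 and 0.22.

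The genes of eIF4F split within families. Eif4a1 (ENSMUSG00000059796, GRCm38 chromosome 11, 69666936 to 69672423) stood at 392 CPM (control) and 482 CPM (MYC library) in granulocyte progenitors, 100.4 and 189 CPM in immature neutrophils, 61.3 and 111 CPM in mature neutrophils, 368 and 594 CPM in monocytes, 349.5 and 445 CPM in erythroid cells and 537 and 574 CPM in stem or multipotent progenitors. It was higher past the fold in immature and mature neutrophils, monocytes and erythroid cells, with log2 ratios of 0.92, 0.85, 0.69 and 0.35. Its close relative Eif4a2 (ENSMUSG00000022884, chromosome 16, 23107444 to 23114136), which also encodes an eIF4A helicase, stood at 80.8 and 48.8 CPM in granulocyte progenitors, 66.9 and 47.4 CPM in immature neutrophils, 107 and 81.3 CPM in mature neutrophils, 96.6 and 73.7 CPM in monocytes, 70.3 and 56.7 CPM in erythroid cells and 127 and 90.6 CPM in stem or multipotent progenitors. Eif4a2 was lower in the MYC library in all 6, by -0.31 to -0.73, and missed the fold in erythroid cells alone. Among the clusters it was not lower in erythroid cluster 4 (log2 ratio 1.53) and in mature neutrophil cluster 0 (0.05).

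The balance of these helicase transcripts does not depend on the scaling of a class. There were 4.85 Eif4a1 UMIs per Eif4a2 UMI in granulocyte progenitors of the control and 9.88 (8.94 to 10.9) in those of the MYC library. In immature neutrophils the values were 1.5 and 3.99, in monocytes 3.81 and 8.06, in stem or multipotent progenitors 4.22 and 6.33 and in erythroid cells 4.97 and 7.85. In mature neutrophils of the control Eif4a2 was the more abundant, at 0.573 (0.521 to 0.630), and in the MYC library Eif4a1 was, at 1.36 (1.252 to 1.48). The ratio was thus 1.5 to 2.66 times as high in the MYC library. Relative to genes of the same length, Eif4a2 was past the fold in granulocyte progenitors (-0.48) and stem or multipotent progenitors (-0.48) and between -0.27 and -0.18 in the other 4 classes, while Eif4a1 ran from -0.09 in stem or multipotent progenitors to 0.95 in mature neutrophils.

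The cap-binding protein gene Eif4e itself stayed within the fold in the 5 classes where it passed the floor, with log2 ratios of -0.23 to 0.18. Its transcript of 4991 bases is long, and relative to genes of that length it was higher in granulocyte progenitors (0.36), immature neutrophils (0.40) and monocytes (0.50), with -0.04 in stem or multipotent progenitors and 0.15 in erythroid cells. Eif4e2, whose product binds the cap without eIF4G and can repress translation, was higher in all 6 by 0.45 to 0.67, from 62.1 to 94.5 CPM in granulocyte progenitors and from 68.6 to 109 CPM in monocytes. Eif4e2 UMIs per Eif4e UMI were 0.969 and 1.60 in granulocyte progenitors and 0.665 and 1.01 in erythroid cells. Eif4e3 was at 40.2 CPM in mature neutrophils of the control and 72.9 CPM in those of the MYC library (0.86, 0.69 to 1.02), and it stayed within the fold in immature neutrophils (-0.09) and monocytes (-0.12). The eIF4G scaffolds leaned lower. Eif4g1 had ratios of -0.72 in granulocyte progenitors (197 and 119.6 CPM) and -0.54 in erythroid cells (237 and 163 CPM), with -0.29 to -0.02 elsewhere. Eif4g3, its relative, was at -0.82 in granulocyte progenitors, -0.43 in immature neutrophils, -0.48 in monocytes and -0.63 in stem or multipotent progenitors, and within the fold in mature neutrophils and erythroid cells. Eif4g2, which encodes a scaffold without the eIF4E site, had -0.34 in granulocyte progenitors and -0.41 in immature neutrophils, but these turned to 0.26 and 0.07 relative to genes of the same length. The coding transcripts of Eif4g1, Eif4g2 and Eif4g3 are 5638, 7995 and 8134 bases long, and relative to genes of the same length no lower call was left: Eif4g1 lay between -0.22 and 0.42 and Eif4g3 between -0.25 and 0.31, at 0.06 in immature neutrophils. Eif4b, a helicase cofactor, stayed within the fold in all 6 classes (-0.27 to 0.09).

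The 4E-BP genes Eif4ebp1 and Eif4ebp2 lay past the fold in opposite directions in all 6 classes. Eif4ebp1 (ENSMUSG00000031490, chromosome 8, 27260329 to 27276674) stood at 56.0 CPM (control) and 138 CPM (MYC library) in granulocyte progenitors, 43.1 and 82.7 CPM in immature neutrophils, 84.3 and 171 CPM in mature neutrophils, 72.5 and 148 CPM in monocytes, 64.9 and 170.3 CPM in erythroid cells and 65.1 and 122 CPM in stem or multipotent progenitors. Its log2 ratios were 1.30 (1.16 to 1.43), 0.94 (0.84 to 1.04), 1.02 (0.90 to 1.13), 1.03 (0.94 to 1.12), 1.39 (1.28 to 1.5) and 0.90 (0.68 to 1.13). This was the largest ratio of any member past the floor in granulocyte progenitors, monocytes, erythroid cells as well as stem or multipotent progenitors. It was above 0 in all 14 clusters where it had at least 100 UMIs, from 0.60 to 2.44, and between 0.80 and 1.29 relative to genes of the same length.

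Eif4ebp2 (ENSMUSG00000020091, chromosome 10, 61428491 to 61452661) stood at 91.9 CPM (control) and 58.7 CPM (MYC library) in granulocyte progenitors, 86.9 and 58.6 CPM in immature neutrophils, 145 and 94.0 CPM in mature neutrophils, 123 and 93.6 CPM in monocytes, 101 and 80.4 CPM in erythroid cells and 115 and 89.2 CPM in stem or multipotent progenitors. Its log2 ratios ran from -0.65 (-0.80 to -0.49) in granulocyte progenitors to -0.33 (-0.46 to -0.20) in erythroid cells, and it was below 0 in all 15 clusters. It was the more abundant of the pair in each class of the control, with 0.497 to 0.642 Eif4ebp1 UMIs per Eif4ebp2 UMI, and the less abundant in each class of the MYC library, with 1.36 to 2.34. The coding transcript of Eif4ebp2 is 5784 bases long and that of Eif4ebp1 1997 bases. Relative to genes of the same length Eif4ebp2 lay between -0.18 and -0.01, so its lower level was close to that of other long transcripts. Eif4ebp3, with 744 bases, was lower in immature neutrophils (-0.48) and erythroid cells (-0.66), had -0.21 in monocytes, and was under the floor elsewhere. Relative to other short transcripts it was further below, at -0.88, -1.05 and -0.62 in these classes. Eif4enif1, whose product carries eIF4E to the nucleus and to silenced mRNA, was lower in the 5 classes where it passed the floor, by -0.48 to -0.80. Relative to genes of the same length it was lower past the fold in granulocyte progenitors alone (-0.40), with -0.31 to -0.21 in the other 4.

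**Figure D4:**
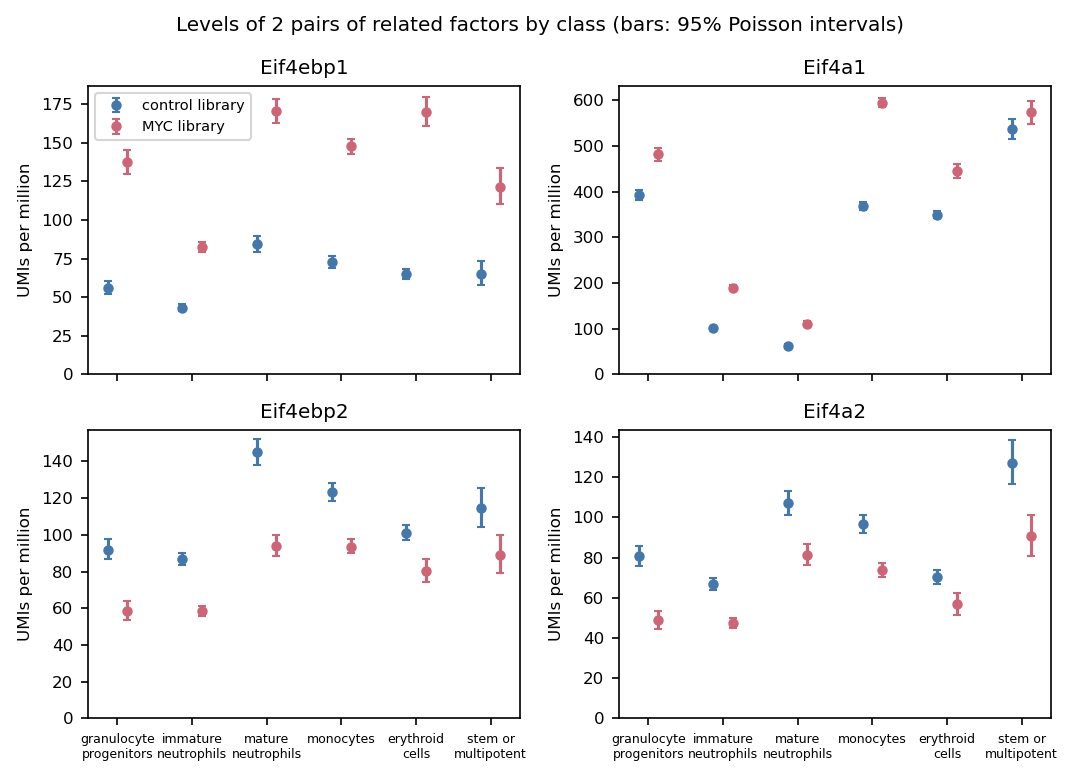
Levels of Eif4ebp1, Eif4ebp2, Eif4a1 and Eif4a2 (y axes, CPM, from 0) in the 6 classes for the control (blue) and the MYC library (red), 1 library each, with 95% Poisson intervals as bars. Eif4ebp1 and Eif4a1 are higher in the MYC library in every class, up to 170.3 against 64.9 CPM for Eif4ebp1 in erythroid cells, and Eif4ebp2 and Eif4a2 are lower in every class.

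Eif6 and Eif5a were higher in every class. Eif6, which keeps the large ribosomal subunit from joining too early, had log2 ratios of 0.64 to 0.84, from 22.0 and 36.0 CPM in mature neutrophils to 76.8 and 119.9 CPM in stem or multipotent progenitors. Eif5a, whose hypusine-bearing product helps ribosomes over difficult peptide bonds, stood at 635 and 1079 CPM in granulocyte progenitors and 445 and 856 CPM in monocytes, with ratios of 0.52 to 0.94. The enzymes that make hypusine, Dhps and Dohh, were both higher in granulocyte progenitors, monocytes and erythroid cells, with Dohh at 24.95 and 51.3 CPM in erythroid cells (1.04).

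No elongation factor was lower past the fold in any of the 6 classes, and 4 of 6 were higher in granulocyte progenitors, 5 of 6 in immature neutrophils, 3 of 5 in mature neutrophils, 5 of 6 in monocytes, 5 of 6 in erythroid cells as well as 3 of 6 in stem or multipotent progenitors. These counts include Eef1e1, named with the elongation factors but part of the tRNA synthetase complex, and stand beside the 15.1% to 21.7% of all genes that were higher. Taken relative to length, 5, 5, 4, 6, 5 and 3 were higher and none lower. Eef1b2 (ENSMUSG00000025967, chromosome 1, 63176825 to 63180486) stood at 1011 CPM (control) and 1622 CPM (MYC library) in granulocyte progenitors, 171 and 414 CPM in immature neutrophils, 126 and 255 CPM in mature neutrophils, 809 and 1385 CPM in monocytes, 741 and 1477 CPM in erythroid cells and 1196 and 2003 CPM in stem or multipotent progenitors. Its log2 ratios were 0.68, 1.27, 1.01, 0.77, 0.99 and 0.74, and it was higher in all 15 clusters. The subunits of eEF1B did not move alike. Eef1d followed with ratios of 0.42 to 0.95 outside mature neutrophils, where it was at 0.17, while Eef1g stayed within the fold in granulocyte progenitors (-0.09), immature neutrophils (0.08), mature neutrophils (-0.09) and stem or multipotent progenitors (0.21), as well as in erythroid cells (0.26), and was higher in monocytes (355 and 489 CPM, 0.46). Within mature neutrophil clusters 0, 1 and 9 Eef1d had 0.37, 0.63 and 0.76, and Eef1g 0.16, -0.11 and 0.23. Relative to length, Eef1d was at 0.42 in mature neutrophils. In immature neutrophils there were 3.21 (control) and 7.33 (MYC library) Eef1b2 UMIs per Eef1g UMI, and 2.28 and 2.83 of them in monocytes. Eef1e1, which belongs to the complex of tRNA synthetases, had 1.18 in immature neutrophils and 0.97 in monocytes.

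Eef1a1 was higher past the fold in 5 classes, with log2 ratios of 0.40 to 0.79, and stood at 4075 and 4878 CPM in stem or multipotent progenitors (0.26, within the fold). Eef2 was higher in immature neutrophils (184 and 244 CPM, 0.40), mature neutrophils (155 and 208 CPM, 0.42) and erythroid cells (729 and 935 CPM, 0.36). Relative to genes of its length Eef2 was higher in 5 classes, adding granulocyte progenitors (0.40) and monocytes (0.46). It then stood at 0.67 in mature neutrophils and 0.22 in stem or multipotent progenitors. Eef2k, the kinase that inactivates eEF2, was lower where Eef2 was higher in mature neutrophils, at 20.9 CPM (235 UMIs) and 8.74 CPM (103 UMIs), a log2 ratio of -1.26 (-1.61 to -0.92) and the lowest ratio of any member past the floor. It was also lower in monocytes (-0.60) and in stem or multipotent progenitors (-0.41). Relative to genes of its length of 6580 bases it was lower in mature neutrophils alone (-0.81), at -0.21 in monocytes and -0.12 in stem or multipotent progenitors, and higher in granulocyte progenitors (0.39). The monocyte ratio itself turned to 0.14 with coarser clusters (Leiden resolution 0.5). Of the enzymes that methylate eEF1A, Eef1akmt1 was higher in the 4 classes where it passed the floor, by 0.47 to 0.86. Its transcript is short, at 880 bases, and relative to genes of that length it was higher in immature neutrophils alone (0.46), with 0.06 to 0.22 in the other 3 classes.

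Of the 9 members listed as TOP mRNAs, 8 passed the floor in each class, and 5, 7, 6, 7, 7 and 4 of them were higher in the 6 classes in the order above, with none lower. With length taken into account 6, 7, 7, 6, 6 and 3 of the 8 were higher and none lower, where 15% to 22.7% of all genes were higher. The start of a TOP mRNA shows its pyrimidine run at the promoter. A run was counted from a C within 5 bases of the annotated start and had to hold at least 5 bases of C and T. A stretch that holds fewer than 5 bases from its first C, as in Eif3m and Eef1a2, was not counted. Of 5 TOP members with an annotated promoter in RefSeq (GRCm38.p6), 2 had such a run, beside 20.8% of the 48 members with a window and 21.2% of 27025 genes. They are shown over 20 bases on either side of the start, with the run in capitals, on the strand of the gene (chr7:108934395-108934434 plus, and chr9:78481705-78481744 minus).
Eif3f: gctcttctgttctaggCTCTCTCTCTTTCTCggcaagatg
Eef1a1: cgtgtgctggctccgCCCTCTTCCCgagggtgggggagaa
Eif3f was higher in the MYC library in 6 classes and Eef1a1 in 5. The other 8 members with such a run are not listed as TOP mRNAs: Eif1ad was higher in 3 classes and Eif2b2 in 1, Eif4enif1 was lower in 5 and Eif4g1 in 2, Eif2b5, Eif3b and Eif3l were past the fold in none, and Eif2c5 had 0 UMIs. Eef1b2 and Eif3m have no run counted in this way and were higher in all 6.

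MYC with its partner MAX binds the E-box CACGTG, so the promoters were searched for these 6 letters on both strands (the motif is its own reverse complement) from 250 bases before to 50 bases after each annotated RefSeq start. Of the 48 members with such a window 14 held it, or 29.2%, against 8.09% of 27025 genes with a window. Members with and without the motif both held higher and lower genes. Of 13 motif members past the floor in at least 1 class, 8 were higher and 3 lower in at least 1 class, and of 32 members without it 17 were higher and 8 lower, where 28% of 9474 genes past the floor in at least 1 class were higher and 57.7% lower. The windows below have CACGTG in capitals with 15 bases on either side, on the strand of the gene. The first 4 belong to members that were higher in all 6 classes, Eif4a1 was higher in 4, Eif4e was past the fold in none and Eef2k was lower in 3. Among motif members not shown, Eif3a was lower in 3 classes and Eif4g1 in 2. Eef2 was higher in 3, Eif4h in 1 and Eef1akmt4 in 1. Eef1aknmt was past the fold in none and Eif5a2 was under the floor. Against genes of like length, Eif3f was higher in 6 classes, Eif5a in 5, Eif3k in 2 and Eif1b in none. By that measure Eif4a1 was higher in 3 classes, Eif4e in 3 of 5, and Eef2k higher in 1 and lower in 1. Among those not shown, Eif3a and Eif4g1 were then lower in no class. Eef2 was higher in 5, Eif4h in 3, Eif4g1 in 2, and Eef1akmt4 and Eef1aknmt in 1 each.
Eif5a: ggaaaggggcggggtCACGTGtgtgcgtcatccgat
Eif3f: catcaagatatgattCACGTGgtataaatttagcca
Eif3k: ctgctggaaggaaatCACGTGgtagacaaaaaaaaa
Eif1b: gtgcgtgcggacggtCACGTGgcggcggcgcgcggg
Eif4a1: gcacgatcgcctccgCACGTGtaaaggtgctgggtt
Eif4e: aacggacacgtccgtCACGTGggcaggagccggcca
Eef2k: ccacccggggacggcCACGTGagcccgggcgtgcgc
They lie, in GRCm38.p6, at chr11:69921440-69921475 (minus strand), chr7:108934332-108934367 (plus), chr7:28981912-28981947 (minus), chr9:120492567-120492602 (plus), chr11:69672592-69672627 (minus), chr3:138527189-138527224 (plus) and chr7:120842785-120842820 (plus). A match describes the letters and not binding. Eif4ebp2, Eif4a2 and Eef1b2 had a window without these letters.

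Of 29 other listed genes of cytosolic translation, 4 of 22 past the floor were higher and 8 lower in granulocyte progenitors, 2 and 7 of 25 in immature neutrophils, 1 and 7 of 19 in mature neutrophils, 6 and 2 of 27 in monocytes, 3 and 6 of 25 in erythroid cells as well as 1 and 4 of 17 in stem or multipotent progenitors. In every class both shares were near or below those of all genes given above. Their medians of -0.22 to 0.06 were below those of the members in every class. Tpt1, a TOP mRNA whose product binds elongation factors, was higher in all 6, from 2636 and 3452 CPM in granulocyte progenitors (0.39) to 754 and 2010.4 CPM in mature neutrophils (1.41). Ddx3x, an RNA helicase, was lower in all 6 by -0.45 to -0.90. Pdcd4, which encodes an inhibitor of eIF4A, was lower in 5 classes by -0.39 to -0.66 and at 0.06 in erythroid cells, but its value in granulocyte progenitors turned to 0.12 with cells under 5% mitochondrial UMIs. Pabpc1, the poly(A)-binding protein, was lower in granulocyte progenitors (-0.34) and erythroid cells (-0.48) and within the fold elsewhere. Gspt1, a release factor, stayed within the fold in all 6 classes (-0.14 to 0.22), as did the ribosome recycling factor Abce1 in the 5 classes where it passed the floor (-0.27 to 0.19). Of the 9 mitochondrial factors, 1 was higher and 1 lower of 4 in granulocyte progenitors, 1 and 3 of 7 in immature neutrophils, 2 and 0 of 9 in monocytes, 1 and 0 of 7 in erythroid cells as well as 0 and 0 of 2 in stem or multipotent progenitors, with none past the floor in mature neutrophils. Tufm, the mitochondrial elongation factor Tu, had -0.60 in granulocyte progenitors and -0.38 in immature neutrophils.

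Other measured features moved with some of these classes, and their part in the results was not tested. Summed over 13 cell cycle genes, the level was 2998 and 2486 CPM in granulocyte progenitors, 7642 and 5290 CPM in erythroid cells and 2728 and 1955 CPM in stem or multipotent progenitors, and 469 and 306 CPM in mature neutrophils, lower in the MYC library where the members were higher. In immature neutrophils (2409 and 2343 CPM) and monocytes (2929 and 2878 CPM) it was about level for the class as a whole. Each immature neutrophil cluster, however, had a lower sum in the MYC library. It was 3149 and 2366 CPM in cluster 5 and 5014 and 4030 CPM in cluster 6. Clusters 7 and 8 had 307 and 215 CPM and 438 and 378 CPM. Cluster 6 held 731 control and 1091 MYC cells. The sum was higher in the MYC library in monocyte cluster 11 (485.6 and 585 CPM) and erythroid cluster 4 (2160.1 and 3789 CPM). It was lower in monocyte cluster 15 (4192 and 3753 CPM) and in erythroid clusters 14 (10665 and 8605 CPM) and 26 (4447 and 2712 CPM). The 6 neutrophil granule and S100 transcripts summed to 12281 and 20850 CPM in erythroid cells, 9192 and 4925 CPM in stem or multipotent progenitors and 16964 and 12871 CPM in monocytes. In erythroid cluster 4 they reached 34755 and 80993 CPM. Of 10 dissociation stress genes, 4 of 4 past the floor were higher in granulocyte progenitors (15.5% of all genes). In immature neutrophils 6 of 7 were higher (15.5%), in erythroid cells 4 of 5 (21.7%) and in monocytes none of 7 (19.7%). Counts for mature neutrophils and for stem or multipotent progenitors are not given here. In mature neutrophils the member median was 0.46, 0.63 and 0.55 in clusters 0, 1 and 9 (all genes: -0.17, -0.10 and -0.15), above the 0.29 of the class as a whole, and cells of the class carried a mean of 3693 (control) and 4912 (MYC library) UMIs. In erythroid cells the median ran from -0.03 in cluster 26, with 13 higher and 16 lower of 52, to 0.31 in cluster 14 and 0.96 in cluster 4, where only 15 members passed the floor. All genes had medians of -0.19 (15.3% higher and 38.3% lower), -0.21 and 0.29 in these clusters, and in cluster 4 48.0% of all genes were higher. Cluster 26 held 290 control and 103 MYC cells, cluster 14 held 827 and 199, and cluster 4 held 367 and 287. With the mean over cells of each cell's CPM, erythroid cells had 23 higher and 6 lower members. By that measure 33.4% of all genes in the class were higher and 20.2% lower.

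In 5 smaller classes fewer members passed the floor. T or NK cells (398 and 147 cells) had 13 higher and 1 lower of 27, where 26.0% of all genes were higher and 25.6% lower. Conventional dendritic cells (213 and 177 cells) had 19 and 3 of 31 (40.1% and 26.9%), and basophils or mast cells (188 and 146 cells) 13 and 7 of 28 (28.1% and 29.6%). Mature B cells (508 and 141 cells) had 10 and 6 of 25 (17.8% and 44.8%) and plasma cells (241 and 85 cells) 22 and 2 of 30 (42.1% and 22.6%). In basophils or mast cells the share of lower members was thus near that of all genes. The summed level of the members was higher in the MYC library in each of these 5 classes and in megakaryocytes and stromal or endothelial cells, and most in plasma cells, from 5659 to 10512 CPM.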

How the data were processed

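The deposited matrices give raw UMI counts for each cell barcode; per the file headers the authors produced them using Cell Ranger 6.0.0, and the submitters' processing notes name Cell Ranger 6.0, Seurat, GRCm38 and mm10. The annotation and the calling of cells are not given in the sources used here. Cells with at least 500 UMIs, 200 genes and under 10% mitochondrial UMIs were kept. Doublets were called with Scrublet in scanpy 1.11.5 (python 3.11.15) at an assumed rate of 6%. Its automatic threshold marked 0 cells of the MYC library, so the control's threshold of 0.231 was used for both, which removed 602 (3.89%) and 356 (2.76%) cells; doublets may remain. Both libraries were clustered together (2000 variable genes, 30 components, 15 neighbours, Leiden resolution 1), leaving out the members, all lists, and ribosomal, mitochondrial and receptor genes. Names of the 27 clusters rest on marker lists for 18 types; cluster 17 (2440 and 2611 cells, low UMIs) and cluster 21 (126 and 65 cells) stayed unnamed, and no free RNA was removed.

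UMIs were summed per class and library. Levels have exact Poisson and ratios exact conditional binomial 95% intervals. No test was run, since each group is 1 library. The steps were tested on simulated data. A gene needed 300 pooled UMIs and a log2 ratio beyond 0.32 to be counted. The named genes were the 3 largest and 3 smallest ratios in each class plus a set list of factors; other members named were chosen after their values were seen. Positions and transcript lengths come from GENCODE vM21 (GRCm38), matched by identifier for 64 of 64 members, and promoters from RefSeq, which gave windows for 48 members. The members and lists were chosen with earlier results of these data known.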

Additional observations from a re-analysis of the deposited data

How the results depend on the processing

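No paired analysis was possible because each group is 1 library. The median log2 ratio of the members stayed above 0 in all 89 values recomputed over the 6 classes. Of these, 80 stayed within an interval around the main median whose ends are ratios of single members. For granulocyte progenitors it ran from 0.03 (Eef2) to 0.31 (Eif4a3). Such an interval describes the spread among members, and not counting error or differences between animals. The causes of the changes below were not tested. Median-of-ratios scaling moved the median to 0.50 in granulocyte progenitors, 0.43 in immature neutrophils and 0.59 in monocytes. It gave 32 higher members in granulocyte progenitors, and 5, 4, 3, 1 and 2 lower members in granulocyte progenitors, immature neutrophils, mature neutrophils, monocytes and stem or multipotent progenitors. Leaving out ribosomal protein, mitochondrial and Gm42418 UMIs moved the median in granulocyte progenitors to 0.32. Leaving out the 20 most abundant genes gave 3 lower members in mature neutrophils, 14 in erythroid cells as well as 9 in stem or multipotent progenitors. With cells under 5% mitochondrial UMIs the median was 0.40 in granulocyte progenitors and 0.46 in erythroid cells, lower members numbered 3 in erythroid cells as well as 7 in stem or multipotent progenitors, and Pdcd4 in granulocyte progenitors turned to 0.12. With at least 1000 UMIs and 500 genes per cell immature neutrophils had a median of 0.060 and 11 lower members. A floor of 1000 pooled UMIs left 11 higher and 2 lower members in mature neutrophils and 11 and 0 in stem or multipotent progenitors. Clusters weighted alike gave a median of 0.55 in mature neutrophils, where the main value was 0.29. Lower medians there that stayed within the interval were 0.15 with a floor of 100 UMIs, 0.17 at Leiden resolution 2 and 0.18 with called doublets kept. At Leiden resolution 0.5 the monocyte median was 0.56 and Eef2k there turned to 0.14; stem or multipotent progenitors were not named at that resolution and have no value.

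A 1.5-fold limit left 9 higher and 5 lower members in granulocyte progenitors, 0 lower in immature neutrophils, 12 higher and 3 lower in mature neutrophils, 18 and 1 in monocytes, 13 and 1 in erythroid cells, and 5 and 1 in stem or multipotent progenitors, with the shares of all genes past that limit printed beside these counts above. Ratios relative to genes of the same length, chosen after seeing the data, gave 3, 2, 1, 1, 3 and 1 lower members in granulocyte progenitors, immature neutrophils, mature neutrophils, monocytes, erythroid cells as well as stem or multipotent progenitors, and turned the sign of 12 ratios that had been past the fold. In granulocyte progenitors Eif4g2 turned to 0.26, Eif5b to 0.20 and Eif3j1 to 0.14, and in immature neutrophils Eif4g2 to 0.071, Eif4g3 to 0.056, Eif3g to -0.0080 and Eif1b to -0.074. Eif3j1 turned to 0.074 in mature neutrophils, Eif1b to -0.062 in monocytes and -0.064 in erythroid cells, and Eif3g to -0.0057 in stem or multipotent progenitors and -0.015 in erythroid cells. With the mean over cells of each cell's CPM, Eif2b4 in erythroid cells turned to 0.038. Of 190 recomputed counts of members 157 stayed within 1.5 times the main count, and of 4244 recomputed ratios of single genes 3070 stayed within the counting interval and 15, past the fold in the main comparison, changed sign, each given above. Leaving out the barcodes that both libraries hold, also chosen after seeing the data, moved no count or median in this way.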
